A study of Mus musculus with 26 samples.

Results

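The 10 cyclin genes that drive the cell cycle were read in single blastomeres of mouse 8-cell embryos. The members were cyclins A (Ccna1, Ccna2), B (Ccnb1, Ccnb2), D (Ccnd1, Ccnd2, Ccnd3), E (Ccne1, Ccne2) and F (Ccnf), chosen by symbol. All 10 were found among the 55487 genes of the gene table. By scRR-seq, chromatin of a lysed cell is held on magnetic beads for DNA sequencing while its RNA is made into a full-length total RNA library, so RNA and replication state come from the same cell. The 9 cells with usable columns were 3 of embryo 1 (cells 1, 6 and 7) and 6 of embryo 2 (cells 2, 3, 5, 6, 7 and 8). Both embryos came from in vitro fertilisation of C57BL/6 oocytes with C57BL/6 sperm, no treatment is named for either, and their blastomeres were dissociated and picked by hand. Each embryo is 1 biological replicate and cells of an embryo are not replicates of it, so every difference below is a description with no test. SDs are between cells.

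RNA levels are TPM, a unit that divides the reads of a transcript by its length and scales every cell to the same total, so genes can be set side by side. TPM keeps no read depth, so a gene without signal is said to be listed at 0. The percentage replication score is the share of 40-kb bins called replicated. It was 3.54%, 0.927% and 0.00385% in embryo 1 cells 1, 6 and 7 and lay between 62.4% and 80.5% in embryo 2, so embryo and replicated share cannot be told apart here. A genome of even copy number gives a score near 0 both before and after replication, and the study uses cells of either kind as references, so the states of embryo 1 do not tell whether its cells had replicated their DNA. The numbers that close the sample labels form a range from 11 to 17 (embryo 1 cell 1, embryo 2 cells 2 and 3) and one from 20 to 25 (the other 6 cells), and each range holds cells of both embryos. The study's sample list names the protocol variant of the first range scRR3 and that of the second scRR1, so number range and protocol cannot be told apart either. Between 12411 and 13319 genes were above 1 TPM in cells of the first range and between 11058 and 11960 in the second. The share of TPM from the mitochondrial genome was 4.28% to 6.77% in embryo 1 and 5.98% to 18.2% in embryo 2. Within embryo 2 it was 6.82% and 5.98% in cells 2 and 3, of the first number range. In its cells 5 to 8, of the second range, it was 9.31% to 18.2%. The label "8-cell embryo" was checked on marker genes. All 10 blastomere markers were above 1 TPM in at least 1 cell and 8 were in every cell, and their summed level was 1912 to 3159 TPM in embryo 1 cells and 1718 to 2630 TPM in cells of embryo 2. Markers of cumulus or granulosa cells, sperm, fibroblasts and blood reached at most 1.95 TPM in any cell.

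Cyclins are the regulatory subunits of cyclin-dependent kinases (CDKs). D cyclins pair with CDK4 and CDK6 and couple growth signals to the phosphorylation of RB, E cyclins pair with CDK2 at the start of DNA synthesis, A cyclins act with CDK2 and CDK1 through S phase, and B cyclins with CDK1 drive entry into mitosis. Cyclin F is the odd member, since it binds no CDK but is an F-box protein that directs substrates to the SCF ubiquitin ligase. Early blastomeres divide by cleavage, without growth, and carry stores of maternal proteins, so an RNA level says little about the amount of a cyclin protein, which is set largely by timed destruction.

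The mitotic and S-phase cyclins carried nearly all of the cyclin RNA. Summed over the 10 genes, cyclin RNA amounted to 839 to 1721 TPM per cell with a median of 1176. B cyclins made up 53.2% ± 7.43 of it (SD, n = 9 cells), A cyclins 23.8% ± 4.34, E cyclins 18.2% ± 4.09, D cyclins 3.27% ± 2.09 and cyclin F 1.58% ± 0.53. By mean TPM over the 9 cells the order was Ccnb1 (617), Ccna2 (289), Ccne1 (213), Ccnb2 (63.0), Ccnd3 (30.2), Ccnf (19.5), Ccnd1 (12.1), Ccne2 (8.51), Ccnd2 (0.361) and Ccna1 (0). Ccnb1 ranked 267th and Ccna2 512th among all 55487 genes. Ccnb1 exceeded Ccna2 and Ccna2 exceeded Ccne1 within each of the 9 cells, although the ranges of these neighbours overlapped between cells. Ccne1 and Ccnb2 were the closest neighbours at the top whose ranges did not overlap. Among the lower genes the order was loose. Ccnd3 exceeded Ccnf in 5 of 9 cells and Ccnd1 exceeded Ccne2 in 6 of 9. With TPM > 1 as the limit of detection, 8 of the 10 genes were detected in every cell.

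**Figure D1:**
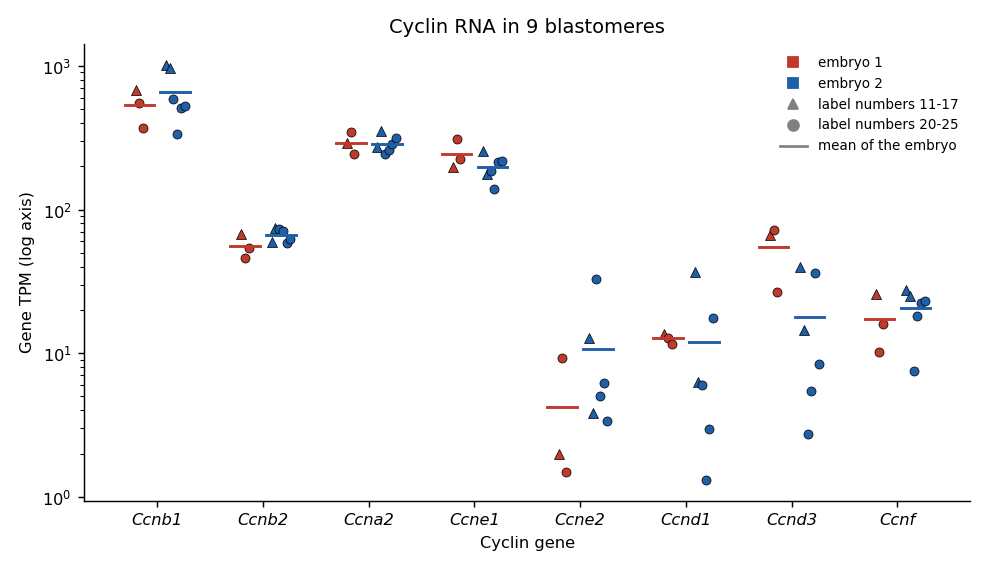
TPM of the 8 detected cyclins (log axis) in each cell of embryo 1 (red) and embryo 2 (blue), with a bar at the mean of the embryo, triangles for label numbers 11 to 17 and circles for 20 to 25. Ccna2 stays between 243 and 351 TPM in all 9 cells, while Ccnd1, Ccnd3 and Ccne2 spread over more than 10-fold.

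Ccna1, the germ-line A cyclin known from meiosis, was listed at 0 in all 9 cells. Ccna2, the A cyclin of somatic cells that is needed from S phase to mitosis, was among the steadiest abundant transcripts of the embryos. Cells 1, 6 and 7 of embryo 1 had 289, 346 and 243 TPM. Cells 2, 3, 5, 6, 7 and 8 of embryo 2 had 272, 351, 243, 261, 284 and 314 TPM. The values of the embryos interleaved, and the means were 292 ± 51.8 TPM (SD, n = 3 cells) and 288 ± 39.0 TPM (SD, n = 6 cells). The SD of its log2(TPM + 1) over the 9 cells was 0.20. Of the 2537 genes with a mean of at least 50 TPM, 39 (1.54%) had a smaller SD, and the median SD of these genes was 0.52. Between the embryos Ccna2 differed by -0.02 on the log2 scale.

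Ccnb2, the second mitotic B cyclin, was nearly as steady at a lower level. Embryo 1 cells had 67.9, 46.3 and 53.9 TPM, and embryo 2 cells had a lowest value of 58.3, a median of 66.6 and a highest of 74.3 TPM. Its SD of 0.22 on the log2 scale was undercut by 70 of the same 2537 genes (2.76%). Embryo 2 was higher by 0.25 (pooled SD between cells 0.20), with embryo 1 cell 1 inside the range of embryo 2. Within the label numbers 20 to 25 this difference was 0.40, and within 11 to 17 it was -0.04.

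Ccnb1, the main mitotic B cyclin and the partner of CDK1 in mitotic entry, was the most abundant cyclin in every cell. Cells 1, 6 and 7 of embryo 1 had 682, 549 and 368 TPM. Cells 2, 3, 5, 6, 7 and 8 of embryo 2 had 1018, 967, 589, 338, 512 and 529 TPM. The highest cell of each embryo belonged to the label numbers 11 to 17, and the 3 cells of that range, 682, 1018 and 967 TPM, lay above all 6 cells of the other range, which reached 589 TPM. The means were 889 ± 181 TPM (SD, n = 3 cells) and 481 ± 103 TPM (SD, n = 6 cells), a difference of 0.89 on the log2 scale with a pooled SD of 0.33. It was 0.60 within embryo 1 and 1.04 within embryo 2. Gene TPM sums transcripts of unlike annotated length. For Ccnb1, described below, these are 1075 and 1182 bases in Ccnb1-204 and Ccnb1-207 against 2489 and 2140 in Ccnb1-201 and Ccnb1-202. The gap therefore depends in part on how reads were divided among these forms. Whether the ranges stay apart once the gene level is weighted by length was not tested. Between the embryos, Ccnb1 differed by 0.25 with a pooled SD of 0.56. The ratio of Ccnb1 to Ccnb2 ran from 4.78 to 17.3, with a mean of 13.4 ± 3.62 in the first range and 8.11 ± 2.34 in the second.

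Over all 13648 genes with a mean above 1 TPM, cells of the first range did not overlap those of the second and were higher for 6.13% of genes, and were lower for 1.24% (7.36% in either direction). Among the 10 cyclins 2 were higher without overlap, Ccnb1 and Ccnf, and 0 were lower. Past 2-fold between the ranges were Ccnd1 (1.05) and Ccnd3 (1.12), both higher in the first range with overlapping cells, and 0 cyclins were lower, where 16.1% of all genes were higher past 2-fold and 4.67% were lower (20.8% in either direction). The median difference over all these genes was 0.29 that over the 10 cyclins was 0.14 and that over the 8 cyclins that pass the same filter was 0.45, so the list lay below or above all genes depending on whether Ccna1 and Ccnd2 were counted. Ccnf was no longer free of overlap once TPM was rescaled without the mitochondrial genome, and Ccnb1 still was.

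The difference in Ccnb1 lay in particular annotated transcripts. The gene is on the minus strand at chr13:100778650-100786570 (mm10), and all of its 7 annotated transcripts in the table passed 1 TPM in at least 1 cell. Ccnb1-201 is the full coding transcript, with 9 exons and 1290 coding bases. Ccnb1-202 lacks a coding exon of 183 bases, and Ccnb1-207 lacks another of 111 bases and is annotated from start to stop codon, without UTRs. Ccnb1-204 is annotated as a retained intron, starts inside the gene with 250 bases of intron ahead of the 159-base exon, and has no coding sequence. The junctions that tell these transcripts apart are shown, 5′ to 3′ on the minus strand, from the GENCODE M21 transcripts of mm10. In each, 20 bases before the boundary are in lower case and the 20 bases of the exon after it are in capitals.
Ccnb1-201 from the 183-base exon into the 159-base exon (chr13:100781764-100783484): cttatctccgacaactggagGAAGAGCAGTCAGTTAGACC
Ccnb1-202, 183-base exon skipped (chr13:100781764-100785476): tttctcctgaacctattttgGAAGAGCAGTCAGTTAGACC
Ccnb1-204, retained intron into the 159-base exon (chr13:100781764-100781803): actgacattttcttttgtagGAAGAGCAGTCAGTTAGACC
Ccnb1-201 from the 111-base exon into the last exon (chr13:100779766-100780041): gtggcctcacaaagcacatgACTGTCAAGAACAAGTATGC
Ccnb1-207, 111-base exon skipped (chr13:100779766-100780795): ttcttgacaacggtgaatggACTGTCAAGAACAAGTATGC
The first 3 share the exon in capitals and differ in what is joined to it, and the last pair shares the start of the last exon. The capitals begin at the same base in each set, so the spliced or unspliced bases in lower case are what sets a transcript apart. Junction reads are not part of the tables, and the transcript values are estimates that RSEM made by dividing reads among overlapping annotations.

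**Figure D2:**
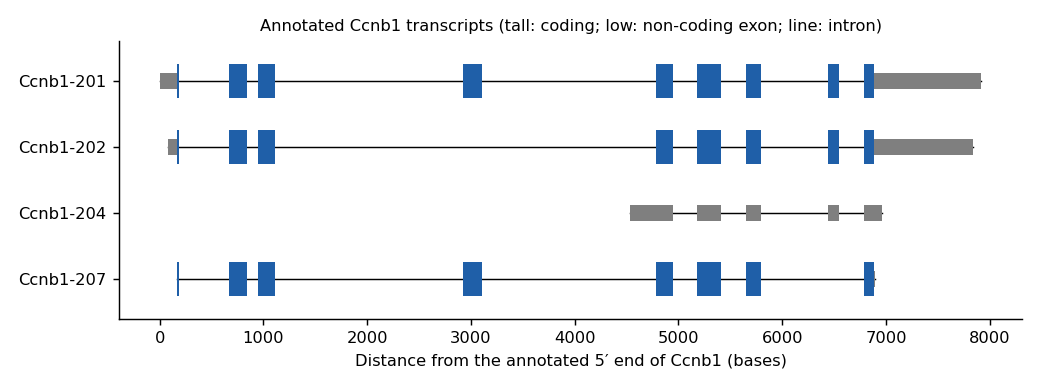
Exons of 4 annotated Ccnb1 transcripts by distance in bases from the 5′ end of the gene, with tall blue blocks for coding exons, low grey blocks for non-coding exon sequence and lines for introns. Ccnb1-207 ends at its stop codon and lacks the 111-base exon that the others share, and Ccnb1-204 begins in the intron ahead of the 159-base exon.

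Ccnb1-207 split the cells by number range. It measured 111 TPM in embryo 1 cell 1, 319 TPM in embryo 2 cell 2 and 337 TPM in embryo 2 cell 3, and was listed at 0 in all 6 cells numbered 20 to 25. Over all 28119 transcripts with a mean above 1 TPM, 0.886% (249) were likewise above 1 TPM in all 3 cells of the first range and listed at 0 in all 6 of the second, and the reverse held for 0.142%. By mean TPM in the first range Ccnb1-207 was the 4th of these 249. Ccnb1-204, the retained intron, measured 297, 358 and 312 TPM in the same 3 cells and 36.8 to 189 TPM in the other 6, again without overlap, where 5.91% of all transcripts were higher without overlap and 1.49% lower. The highest of these 6 was embryo 1 cell 7, where Ccnb1-204 made up 51.3% of Ccnb1. The pair annotated with a 3′ UTR had no such difference. Ccnb1-201 and Ccnb1-202 together measured 302 ± 36.3 TPM (SD, n = 3 cells) in the first range and 393 ± 138 TPM (SD, n = 6 cells) in the second, a difference of -0.29 on the log2 scale with a pooled SD of 0.53. Ccnb1-204 and Ccnb1-207 together thus held 64.5% ± 4.10 of Ccnb1 TPM in the first range and 19.5% ± 16.3 in the second. Weighted by annotated length, which approximates shares of sequenced bases and was added after seeing the data, these shares were 46.3% and 10.9%. Shares between forms with and without a 3′ UTR depend on how evenly a library covers transcripts from end to end. Coverage along transcripts is not part of the tables, so the part of the protocol variant in these shares, and in those of Ccna2 below, was not tested.

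**Figure D3:**
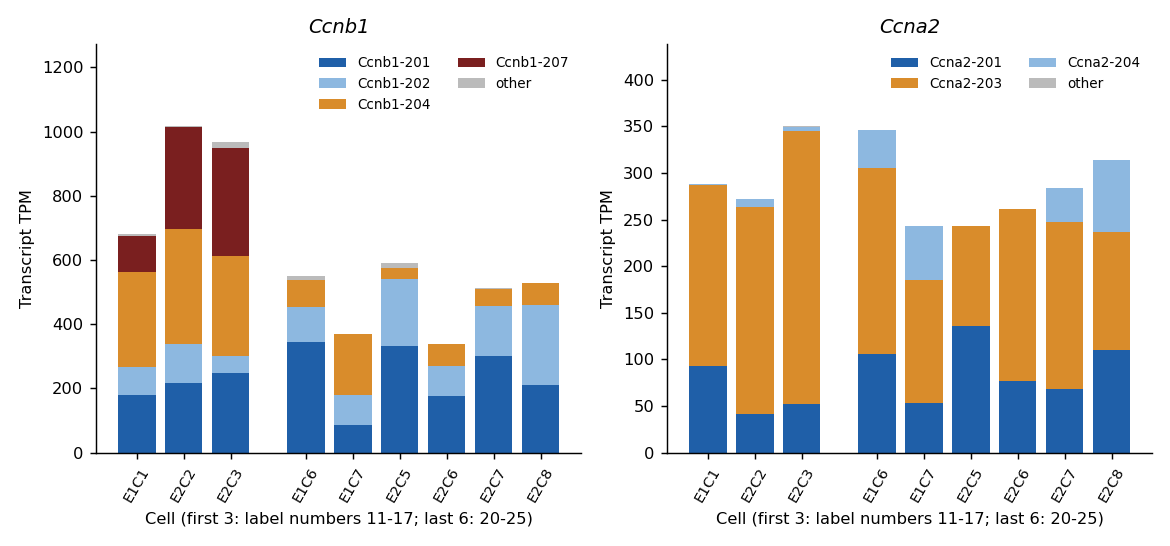
Stacked bars of transcript TPM for Ccnb1 (left) and Ccna2 (right) in each cell, the 3 cells numbered 11 to 17 first and the 6 cells numbered 20 to 25 after the gap (E1C1 is embryo 1 cell 1). Ccnb1-207 is present only in the first 3 bars, while Ccna2-203 makes up between 40.3% and 83.7% of Ccna2 in all 9 cells.

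The steady level of Ccna2 hid a mixture of transcripts. By TPM its main annotated form was not the coding one. Ccna2-203, annotated as a target of nonsense-mediated decay (the pathway that degrades RNAs with an early stop), measured 107 to 293 TPM and made up 62.6% ± 15.2 of Ccna2 TPM (SD, n = 9 cells). Its share was 77.6% ± 9.15 in the first number range and 55.1% ± 11.5 in the second. The coding form Ccna2-201, with 1266 coding bases, measured 41.1 to 136 TPM and was below Ccna2-203 in 8 of 9 cells. The exception was embryo 2 cell 5, with 136 TPM of Ccna2-201 and 107 TPM of Ccna2-203. Ccna2-203 joins exon 2 to an additional exon of 90 bases, whose reading frame is closed by a stop codon after 29 coding bases. This leaves 459 coding bases. The boundary is shown for both forms, again on the minus strand of mm10. The capitals mark the 20 bases of the next exon in Ccna2-201 and the stop codon in Ccna2-203.
Ccna2-201, exon 2 into the next exon (chr3:36569070-36570755): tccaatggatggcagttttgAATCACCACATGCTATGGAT
Ccna2-203, exon 2 into the 90-base exon (chr3:36570134-36570755): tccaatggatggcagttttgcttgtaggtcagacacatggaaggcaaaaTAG
The first 20 bases are shared, and Ccna2-203 then reads through 29 bases to the stop. Apart from that exon and its shorter ends, Ccna2-203 follows the exons of Ccna2-201, so the forms share most of their sequence and the share rests on the RSEM estimate. Weighted by length the share was 54.2% over the 9 cells. In the first number range it was 68.4%, against 30.8% for Ccna2-201. In the second range the forms were nearly level by this measure, at 47.1% and 46.8%. A short 3′ form without coding sequence, Ccna2-204, measured 1.64 to 7.73 TPM in the first number range and 0 to 77.4 TPM in the second.

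E cyclins, the partners of CDK2 at the start of S phase, were present mostly as Ccne1. Ccne1 measured 198, 308 and 226 TPM in embryo 1, and had a lowest value of 140, a median of 201 and a highest of 254 TPM in embryo 2. Embryo 2 was lower by 0.30 on the log2 scale, within the pooled SD of 0.31, and cells of both embryos overlapped. The coding transcript Ccne1-201 held 85.6% to 100% of its TPM. Ccne2 was far lower, at 1.99, 9.20 and 1.48 TPM in embryo 1 and at 3.36 (lowest), 5.63 (median) and 32.6 TPM (highest) in embryo 2. It was 1 of the 2 cyclins past 2-fold between the embryos, 1.04 higher in embryo 2 on the log2(TPM + 1) scale with a pooled SD of 1.12. The value lay below 2-fold when any 1 of 4 cells was left out, and was 0.64 without embryo 2 cell 5, which held the highest level and also the largest mitochondrial share (18.2%). It was 0.90 without embryo 2 cell 2. Leaving out cell 1 of embryo 1 gave 0.79, leaving out its cell 7 gave 0.65, and leaving out its cell 6 raised the value to 1.67. The ratio of Ccne1 to Ccne2 ran from 5.70 to 153, with a median of 34.5.

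D cyclins, which answer to growth factors, were low and uneven. Ccnd2 was at most 1.36 TPM and passed 1 TPM in 2 cells, embryo 2 cells 3 and 8. Ccnd1 was tight in embryo 1, with 13.6, 12.8 and 11.6 TPM, and scattered in embryo 2, with 37.0, 6.31, 6.00, 1.31, 2.99 and 17.6 TPM in cells 2, 3, 5, 6, 7 and 8. The highest and the lowest of all 9 cells were thus in embryo 2, on both sides of the narrow range of embryo 1. The embryo difference was -0.71 with a pooled SD of 1.24. It was -1.17 within the label numbers 20 to 25 and 0.19 within 11 to 17.

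Ccnd3 was the most abundant D cyclin and had the largest embryo difference of the 10 genes. Embryo 1 had 66.0, 72.2 and 26.7 TPM in cells 1, 6 and 7, and embryo 2 had 39.9, 14.5, 2.72, 5.5, 35.9 and 8.40 TPM in cells 2, 3, 5, 6, 7 and 8. Cells 2 and 7 of embryo 2 lay above embryo 1 cell 7, so the embryos overlapped. Ccnd3 was lower in embryo 2 by 1.96 on the log2(TPM + 1) scale, which exceeded the pooled SD of 1.24. Leaving out each cell in turn gave -2.41 to -1.59, and without embryo 1 cell 7 the embryos no longer overlapped. The difference was -1.41 within the label numbers 11 to 17 and -2.23 within 20 to 25, so both ranges had it. Ccnd3 spans chr17:47505051-47599691 on the plus strand, with annotated transcripts that start at either end. Of its 21 annotated transcripts, the 8 that start nearer the 3′ end carried 56.9, 70.0 and 26.7 TPM in embryo 1, with Ccnd3-205 as the chief form. The same 8 carried 39.9, 3.00, 2.31, 5.5, 35.9 and 2.27 TPM in embryo 2, in the order of cells above. The 13 that start nearer the 5′ end reached at most 11.5 TPM. Cells 3, 5, 6 and 8 of embryo 2, those with little Ccnd3, thus had at most 5.5 TPM of the forms that start nearer the 3′ end.

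Ccnf, which counts cyclin B among the proteins known to bind it, had 25.7, 10.2 and 16 TPM in embryo 1 cells 1, 6 and 7. Cells 2, 3, 5, 6, 7 and 8 of embryo 2 had 27.8, 24.8, 7.56, 18.1, 22.4 and 22.99 TPM. The 3 cells numbered 11 to 17 were the highest of all 9, at 26.1 ± 1.51 TPM against 16.2 ± 6.30 TPM, and the difference was 0.75 with a pooled SD of 0.51. It was 0.95 within embryo 1 and 0.65 within embryo 2. Between the embryos Ccnf differed by 0.23 with a pooled SD of 0.63. Its transcript of 4133 bases, Ccnf-201, held 83.5% to 100% of its TPM.

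Between the embryos, then, 2 of the 10 cyclins were past 2-fold, Ccnd3 lower and Ccne2 higher in embryo 2. Of all 13648 genes with a mean above 1 TPM, 18.4% were past 2-fold in either direction, 10.7% lower and 7.69% higher in embryo 2. None of the 10 had cells that did not overlap, where 3.35% of all genes did (2.51% lower and 0.843% higher in embryo 2). The cyclins were therefore near the background on both measures. The median difference was 0.12 over the 10 cyclins, 0.11 over the 8 that pass this filter and -0.04 over all genes, and the median pooled SD of all genes was 0.85. The 4 cyclins above 50 TPM in mean, Ccna2, Ccnb1, Ccnb2 and Ccne1, differed by at most 0.30 in size. The identity of the second cyclin past 2-fold depended on the cells. Within label numbers 20 to 25 these were Ccnd1 and Ccnd3, and within 11 to 17 Ccnd3 and Ccne2.

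**Figure D4:**
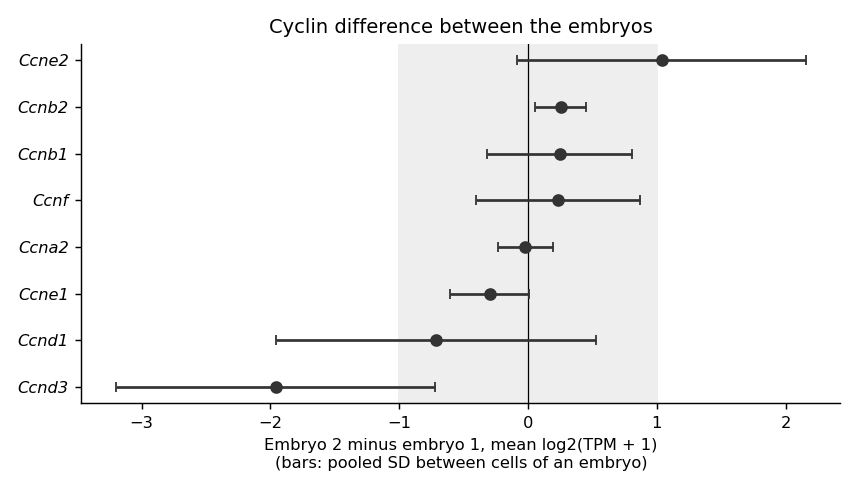
Embryo 2 minus embryo 1 in mean log2(TPM + 1) for the 8 detected cyclins, with bars for the pooled SD between cells of an embryo (3 and 6 cells) and grey shading for differences under 2-fold. Ccnd3 at -1.96 and Ccne2 at 1.04 lie past 2-fold, and Ccna2 lies at -0.02.

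Replication of the cyclin genes themselves was read from the 40-kb bins they overlap. Ccnd2 (chr6:127125162-127152193) had no bin. The other 9 genes carried the lower state (-1) in all 3 cells of embryo 1, whose even profiles do not tell a locus before replication from one after it. In embryo 2, 7 of these 9 were replicated in all 6 cells, where 75.5% of the 11091 genes above 1 TPM with a state in every cell were. The 7 were Ccna1 (chr3:55045469-55055501), Ccna2 (chr3:36564865-36572150), Ccnb1, Ccnb2 (chr9:70407692-70421547), Ccnd3, Ccne1 (chr7:38097984-38107534) and Ccnf (chr17:24222198-24251484), all in mm10 coordinates, so both Ccna1, listed at 0, and the abundant Ccnb1 were among them. The exceptions were Ccnd1 and Ccne2, each unreplicated in 1 cell. Ccnd1 (chr7:144929931-144939925, minus strand) was unreplicated in embryo 2 cell 6, the cell with the lowest replication score, inside an unreplicated run of 14 bins (chr7:144800001-145360000, 0.56 Mb) that was replicated in 100% of the calls in the other 5 cells. That cell also had the lowest Ccnd1 level, 1.31 TPM against 2.99 to 37.0 TPM in the others. Ccne2 (chr4:11191351-11204779) was unreplicated in embryo 2 cell 8, inside a run of 12 bins (chr4:10840001-11320000, 0.48 Mb) that was replicated in 86.7% of the calls elsewhere. That cell had the lowest Ccne2 level of embryo 2, 3.36 TPM against 3.81 to 32.6 TPM. For Ccnd1 and Ccne2 the cell with the unreplicated locus was thus the lowest of its embryo. Among the 2236 genes that were unreplicated in 1 of the 6 cells, that cell was the lowest for 18.9%. Embryo 2 cell 6 was the lowest of the 6 for 21.3% of all genes and embryo 2 cell 8 for 17.7%, whatever their state, which is close to that share. Where the locus was unreplicated in cell 6 alone, cell 6 was the lowest for 20.5% of genes, and for cell 8 this share was 19.2%.

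Within embryo 2 the cyclins were next read in the order of the replication score, which was 62.4% in cell 6, 74.2% in cell 3, 76.9% in cell 5, 77.8% in cell 2, 78.7% in cell 8 and 80.5% in cell 7. Cell 6, set apart at the low end, had the lowest level of 3 of the 10 cyclins, Ccnb1 (338 TPM), Ccnd1 (1.31 TPM) and Ccne1 (140 TPM), and the lowest summed cyclin RNA of all 9 cells, 839 TPM. Over all 13648 genes with a mean above 1 TPM, cell 6 was likewise the lowest of the 6 for 21.3%. Its Ccna2 (261 TPM) and Ccnb2 (70.6 TPM) lay inside the range of the other cells. Among the 5 cells between 74.2% and 80.5%, cells 2 and 3, of the first number range, had 1018 and 967 TPM of Ccnb1. Cells 5, 7 and 8, of the second range, had 512 to 589 TPM, and the score of cell 5 lay between those of cells 3 and 2. The part of number range or score in these Ccnb1 levels was not tested. Ccne1 did not decline toward the highest scores, with 218 TPM in cell 8 and 216 TPM in cell 7. With 1 cell at the low end and 5 close together, no trend with the score can be read from these values.

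**Figure D5:**
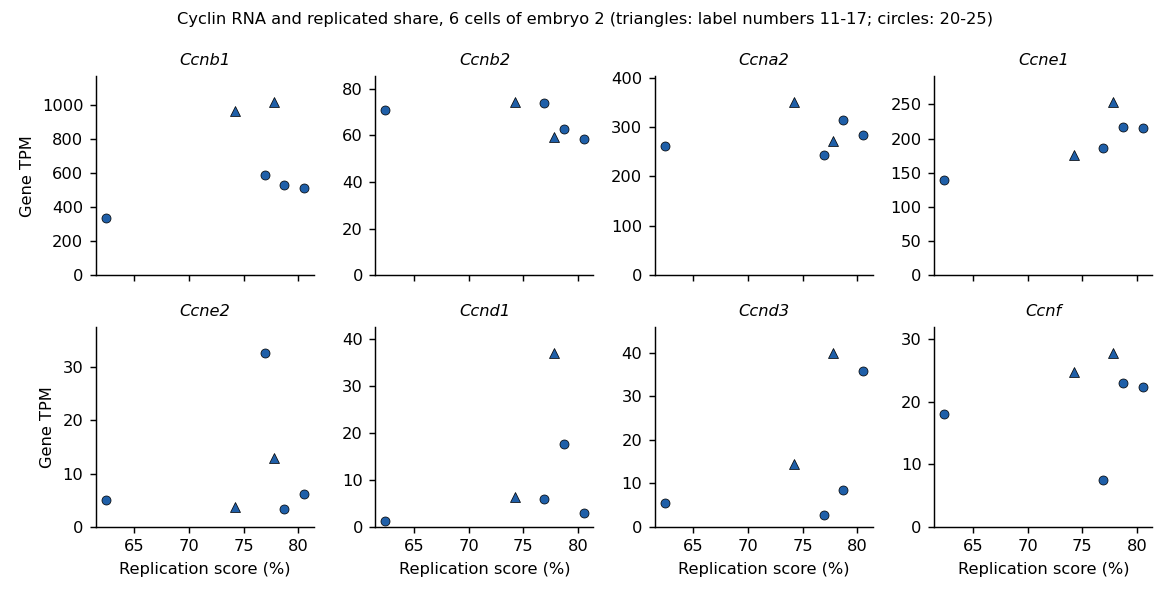
TPM of each of the 8 detected cyclins against the percentage replication score in the 6 cells of embryo 2, with triangles for label numbers 11 to 17 and circles for 20 to 25. Cell 6 stands alone at 62.4%, with the lowest Ccnb1, Ccnd1 and Ccne1, while the other 5 cells lie between 74.2% and 80.5%.

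The partners and regulators of the cyclins were read in 7 lists with 99 genes. Of these, 65 were above 1 TPM in every cell and 3 were listed at 0 in all. Past 2-fold between the embryos were 10 genes higher and 2 lower in embryo 2, beside 7.69% higher and 10.7% lower over all genes. The counts past 2-fold given per list below stand beside the same shares. In 3 genes the cells of embryo 2 lay above those of embryo 1 without overlap and in 1 gene below, beside 0.843% above and 2.51% below over all genes. Leaving out cell 1 of embryo 1 gave 15 higher and 4 lower, and leaving out its cell 7 gave 3 higher and 4 lower, so the excess of higher genes rested on that cell. The list medians lay between -0.10 and 0.16, beside -0.04 over all genes.

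Among the 7 kinases, Cdk1, the partner of cyclins A and B, was the most abundant, with 515, 241 and 540 TPM in embryo 1, while the cells of embryo 2 ran from 268 to 882 TPM. Its mean of 524 TPM was near that of Ccnb1, 617 TPM, but single cells differed more. Embryo 1 cell 6 had 241 TPM of Cdk1 against 549 TPM of Ccnb1, and embryo 2 cell 5 had 872 against 589 TPM. Cdk4, the partner of D cyclins, measured 71.8 to 340 TPM. In embryo 1 cell 6 its 85.6 TPM was about the summed level of the D cyclins, 85.3 TPM. In every other cell Cdk4 was far above that sum. Examples are 310 against 79.7 TPM in embryo 1 cell 1 and 176 against 8.93 TPM in embryo 2 cell 5. Cdk4 was higher without overlap in the number range 11 to 17, by 1.33 on the log2 scale within embryo 1 and 1.28 within embryo 2. Cdk2, the partner of cyclins E and A, had 39.1, 15.3 and 19.1 TPM in embryo 1, while the cells of embryo 2 ran from 17.7 to 104 TPM, a difference of 1.06 with a pooled SD of 0.81 and overlapping cells. Cdk5, named after its values were seen since it was the 1 kinase lower past 2-fold, was at most 9.69 TPM and differed by -1.79.

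Inhibitors of CDKs were low. Of 8 genes, 2 were above 1 TPM in every cell, and 0 were past 2-fold in either direction. Cdkn1a, which encodes p21, measured 9.21 to 79.7 TPM, Cdkn2d, an inhibitor of CDK4 and CDK6, 1.67 to 13.8 TPM and Cdkn3, a CDK-directed phosphatase, 0 to 7.01 TPM. Of the 11 genes that set the phosphorylation of CDK1 and its substrates, 2 were higher past 2-fold and 0 lower. Ensa, a substrate of the Greatwall kinase that restrains the phosphatase PP2A, had 10.6, 10.2 and 5.12 TPM in cells of embryo 1 and 13.4, 10.6, 18.1, 20.4, 28.0 and 22.2 TPM in embryo 2 cells 2, 3, 5, 6, 7 and 8. Its embryo 2 cells lay above all 3 of embryo 1, by 1.03 with a pooled SD of 0.49, but the closest pair, 10.59 and 10.58 TPM, was nearly equal. The other was Cdc25c, a phosphatase that activates CDK1, named after its values were seen, with a difference of 1.38 and overlapping cells. Arpp19, the paralogue of Ensa, was more abundant at 61.0 to 202 TPM and differed by -0.43. Plk1, the mitotic polo kinase, measured 65.7 to 257 TPM, and Cdc25a, the phosphatase that activates CDK2 and CDK1, 22.6 to 67.9 TPM.

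Cyclins are destroyed through ubiquitin ligases. Of the 21 genes of the anaphase-promoting complex (APC/C) and its regulators, 20 were above 1 TPM in every cell and 0 were past 2-fold between the embryos. Ube2c, the E2 enzyme of the APC/C, measured 407 to 1016 TPM, Cdc20, its mitotic activator, 132 to 492 TPM and the subunit Anapc5 136 to 249 TPM. By number range, 5 of the 21 were higher in 11 to 17 without overlap and 1 was lower, beside 6.13% higher and 1.24% lower over all genes. Of the 13 genes of the SCF ligase and the CKS proteins, 10 were above 1 TPM in every cell and 1, Usp28, was higher past 2-fold in embryo 2, named after its values were seen. Usp28 differed by 1.14 with a pooled SD of 1.61 and overlapping cells. Between the number ranges it differed by 1.46, higher in 11 to 17, also with overlap. Cks2, a small subunit of CDK complexes, was the most abundant gene of all 7 lists at 557 to 1559 TPM. Unlike Ccnb1, it was lower in the label numbers 11 to 17, by 1.17 on the log2 scale and without overlap. Skp1a measured 129 to 679 TPM and Cul1 117 to 288 TPM, both core subunits of the SCF.

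Of the 20 genes of the RB-E2F and MYB-MuvB lists, which control the transcription of cyclins, 10 were above 1 TPM in every cell. Past 2-fold, 4 were higher in embryo 2 and 0 lower, beside 7.69% higher and 10.7% lower over all genes. All 4 overlapped between the embryos. These 4 were Rb1, E2f7, Lin9 and Lin52, named after their values were seen. In embryo 1 cell 7 they were listed at 0, 0, 1.09 and 0 TPM. Rb1 was at most 0.82 TPM in embryo 1, and E2f7 was at most 5.49 TPM in any cell. Mybl2, the B-MYB factor of mitotic genes, measured 67.5 to 217 TPM, the chromatin factor Rbbp4 91.4 to 228 TPM and the E2F partner Tfdp1 38.7 to 123 TPM.

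Of 19 other genes with a cyclin fold, 11 were above 1 TPM in every cell, and 2 were higher and 1 lower past 2-fold in embryo 2. Ccng1, a p53 target that encodes cyclin G1, measured 13.3, 20.1 and 22 TPM in embryo 1 cells 1, 6 and 7 and 53.4, 50.7, 41.9, 68.7, 81.7 and 46.0 TPM in embryo 2 cells 2, 3, 5, 6, 7 and 8. The lowest cell of embryo 2 lay well above the highest of embryo 1, and the difference of 1.57 was over 4 times the pooled SD of 0.36. The second gene higher past 2-fold was Ccnl1, named after its values were seen, with overlapping cells. Cables1 was lower in embryo 2 without overlap, but its level was 1.11 to 4.06 TPM in embryo 1 and reached only 0.81 TPM in embryo 2. Ccnj, named after its values were seen, was higher without overlap but under 2-fold (0.80) and at most 2.27 TPM. Of the cyclins that serve transcription, Ccnt1 of the elongation factor P-TEFb measured 45.5 to 113 TPM, Ccnl2 39.0 to 83.5 TPM and Ccnh, the partner of CDK7, 14.2 to 150 TPM.

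Copies of the cyclin genes could take reads from their parents. The processed pseudogene Ccnb1-ps was listed above 0 in 2 of 9 cells, at 7.95 TPM at most, Ccnb2-ps reached 1.09 TPM and Ccnd3-ps was listed at 0 throughout. These levels were small beside Ccnb1 and Ccnb2.

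For the most abundant member of each class, the genes with the most similar profile were sought among 4975 genes with a mean of at least 10 TPM and an SD of at least 0.5 on the log2 scale. Likeness was Pearson's r of log2(TPM + 1) over 9 cells. These cells fall into embryos and into number ranges that differ in protocol variant. With so many genes and so few cells, high values are easily reached. For Ccna2 the closest were Iws1 (r = 0.937), Rpp14 (0.915) and Slu7 (0.897). For Ccnb1 they were Thrap3 (0.933), Kat7 (0.928) and Taf5l (0.927), and 6 genes passed 0.9. For Ccnd3 they were Bcap31 (0.948), Aqp3 (0.937) and Setd1a (0.924). For Ccne1 they were Hspa1b (0.938), which has a near-identical copy in the genome, Hand1 (0.886) and Dr1 (0.884). For Ccnf they were Slc19a2 (0.919), Hinfp (0.910) and Nt5c (0.905). None of these 15 genes was a cyclin. Among the cyclins themselves the highest r was 0.70, between Ccnd1 and Ccne1, and the lowest was -0.86, between Ccnb2 and Ccne1.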

How the data were processed

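RNA and DNA of single blastomeres were profiled by scRR-seq. For RNA, the authors deposited gene and transcript TPM, after setting reads to a common number, aligning them with Hisat and estimating abundance with RSEM against GENCODE annotation within ramdaq. For DNA, the authors deposited a score per 40-kb bin (1 replicated, -1 unreplicated, 0 no data), called by AneuFinder on mm10 after alignment with BWA 0.7.17-r1188 (per the labels). TPM keeps no depth, so no counting interval was computed and precision rests on the number of cells.

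Each table also held 14 columns that match no label, which were not used. The RNA headers name 1 embryo and cell throughout, so columns were assigned by the number that closes each title. Of 26 labelled samples (13 cells), 9 cells had columns, and the others were not analysed here. Gene identifiers were matched to GENCODE M21 of the same build (55141 of 55487).

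A gene counted as replicated in a cell where its bins averaged above 0 and as unreplicated below 0. Differences were of mean log2(TPM + 1) with a pseudocount of 1. A gene was past 2-fold at an absolute difference of 1, and groups did not overlap where all cells of one lay above all of the other. Background genes had a mean TPM > 1. The cyclins, the 7 companion lists and the marker lists were chosen with earlier results of these data known. Named companion genes were the 3 highest by mean TPM of each list and up to 3 per direction past 2-fold without overlap, and others are said to be named after their values were seen. Genes most alike were the 3 with the highest r. Alternatives were another pseudocount, other scalings, other thresholds, single number ranges and leaving out each cell. Scripts were tested on simulated data with less spread between cells than the real data. That test bears on the code and not on how reliable the calls past 2-fold are. Python 3.11.15, numpy 2.4.6, pandas 2.3.3, scipy 1.17.1 and matplotlib 3.10.9 were used.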

Additional observations from a re-analysis of the deposited data

Results flagged for a closer look

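Among the values of 9 cyclins and 8 sums, ratios and class shares in the 6 cells of embryo 2, 1 of 17 was set apart from the rest by Dixon's ratio. Ccnf in embryo 2 cell 5, at 7.56 TPM, was the lowest of 6 with a ratio of 0.661 on the log2(TPM + 1) scale, above the 95% critical value for 6 samples, while the other 5 cells measured 18.1 to 27.8 TPM. Chance sets apart about 1 in 20 such groups. The same cell had the highest Ccne2 level (32.6 TPM), the lowest Ccnd3 level (2.72 TPM) and the largest share of mitochondrial TPM (18.2%), and the part of that share in the Ccnf value was not tested.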

How the results depend on the processing

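No paired analysis was possible because no result comes from a test and a cell number shared by both embryos names no shared source. The median difference of the 10 cyclins between the embryos moved by less than the spread between cells under every alternative run, with 0.001 to 0.16 over the 9 cells left out in turn. The median between number ranges was 0.08 to 0.26. Of the cyclins past 2-fold, Ccnd3 was past it under every alternative run for that count. Leaving out 1 cell gave 1 to 2 such cyclins, and the count was 1 at 3-fold and 1 without the 2 cells with the most mitochondrial TPM, a choice made after seeing the data. The count without overlap was 4 in label numbers 11 to 17 alone (1 cell against 2) and 2 in 20 to 25 alone. With so few cells on a side, a lack of overlap is easily reached. The share of all genes without overlap was not computed within single ranges, so these counts have no background beside them. With TPM > 5 as the limit, 5 cyclins were detected in every cell. Weighting by length gave 46.3% in place of 64.5% for Ccnb1-204 and Ccnb1-207 in the first number range. Leaving out 1 cell gave 7 to 19 companion genes past 2-fold, and 3 higher against 4 lower without embryo 1 cell 7 (10 against 2 with all cells). The share of all genes past 2-fold was 34.2% with a pseudocount of 0.1 TPM, 40.6% at 1.5-fold, 5.79% at 3-fold, 28.7% in label numbers 11 to 17 alone and 11.1% with all genes above 0 as the background. The causes were not tested. Levels near 1 TPM, such as Ccnd2, cannot be weighed because no depth is known.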
